A study of Homo sapiens with 9 samples.

Results

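The annexin genes ANXA1, ANXA2, ANXA3, ANXA4, ANXA5, ANXA6, ANXA7, ANXA9, ANXA10 and ANXA11 were examined in the human gastric cancer cell line MKN45. These 10 genes were taken by symbol and were represented by 15 of the 47231 probes on the array, and they were 10 of the 16180 genes tested. ANXA10 and ANXA1 had been picked out by their differences between YAP-S127A cells and both controls, and the gene set was drawn up with those differences known. The YAP-S127A differences of the annexins below are therefore given as a description, with standard errors and no p-values.

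Total RNA was profiled on Illumina bead arrays in 3 groups of 3 arrays, all from MKN45. The first group carried a vector for YAP-S127A, the YAP1 coactivator with an alanine in place of the serine at which the Hippo kinases phosphorylate it to hold it out of the nucleus. The second carried the control vector and the last was mock. The labels name neither the way the construct was delivered nor the time it was expressed, and do not tell separate cultures from repeat samples of 1 culture. Standard errors and p-values therefore cover the spread among these arrays alone, part or all of which may be technical. The study compared the YAP-S127A cells with both controls to find genes that respond to YAP1.

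Annexins are cytosolic proteins that bind acidic membrane phospholipids when calcium rises, through a core of repeats that carry the calcium sites. They link membranes to the cytoskeleton, take part in vesicle traffic and help to patch torn plasma membrane, and several pair with small S100 proteins through their N-terminal tails. ANXA10 is a divergent member that is characteristic of gastric epithelium, whereas ANXA1, ANXA2 and ANXA5 are made in many tissues.

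The median signal of the arrays ranged from 107 to 136 intensity units, and the lowest signal on an array from 70.6 to 89.2. Principal component 1 took up 33.4% of the variance, with the YAP-S127A arrays at 14.4 to 16.8 and the 6 control arrays below 0. Mock array 1 stood apart from the other controls, at -15.9 on this component and at 17.9 on the second, which held 15.3%. The array's YAP1 probe averaged 6.12 ± 0.06 log2 units in YAP-S127A cells, 6.04 ± 0.09 in vector cells and 6.08 ± 0.09 in mock cells (SD, n = 3 each), below the brightness filter of 6.18. Whether this probe matches the expressed YAP-S127A sequence is not known here, so it does not check the labels. The epithelial markers EPCAM, CDH1, KRT8, KRT18 and KRT19 lay at the 95.1 to 99.3 percentile of probes, while CD3E, CDH5 and VWF, markers of T cells and endothelium, were under the filter. Of the other cell types' markers, 3 of 5 leukocyte, 5 of 5 fibroblast and 1 of 3 endothelial genes passed the filter. LYZ, a lysozyme gene, lay at the 96.3 percentile of probes and the others between 27.4 (COL3A1) and 70.4 (LUM). In bulk RNA, fewer cells of a type and less RNA per cell cannot be told apart.

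Levels below are normalized log2 intensities of the brightest probe of a gene, and each difference is YAP-S127A minus the control on that scale. ANXA3, ANXA9 and ANXA1 were higher in YAP-S127A cells than in both controls, and ANXA10 was lower than in both. A gene was called at an adjusted p under 0.05 in limma with Benjamini-Hochberg adjustment over all genes tested. By that rule 4 of the 10 annexins were called against vector, where 3.45% of genes were, and 4 against mock, where 4.25% were. The same 4 were called against both controls, a rule met by 2.37% of genes, and the other 6 were called against neither. Of the 4, 3 were higher and 1 lower; over all genes 1.34% were higher and 1.03% lower in both comparisons, with 1.76% higher and 1.7% lower against vector and 2.18% higher and 2.07% lower against mock. These 4 also had YAP-S127A arrays that did not overlap any of the 6 control arrays, as 11.3% of genes did. Because the choice of members used these contrasts, nothing is read from those counts. The median difference of the 10 genes was -0.05 against vector and -0.02 against mock, and that of all genes tested was -0.01 and -0.00. The 2 YAP-S127A comparisons share the YAP-S127A arrays.

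**Figure D1:**
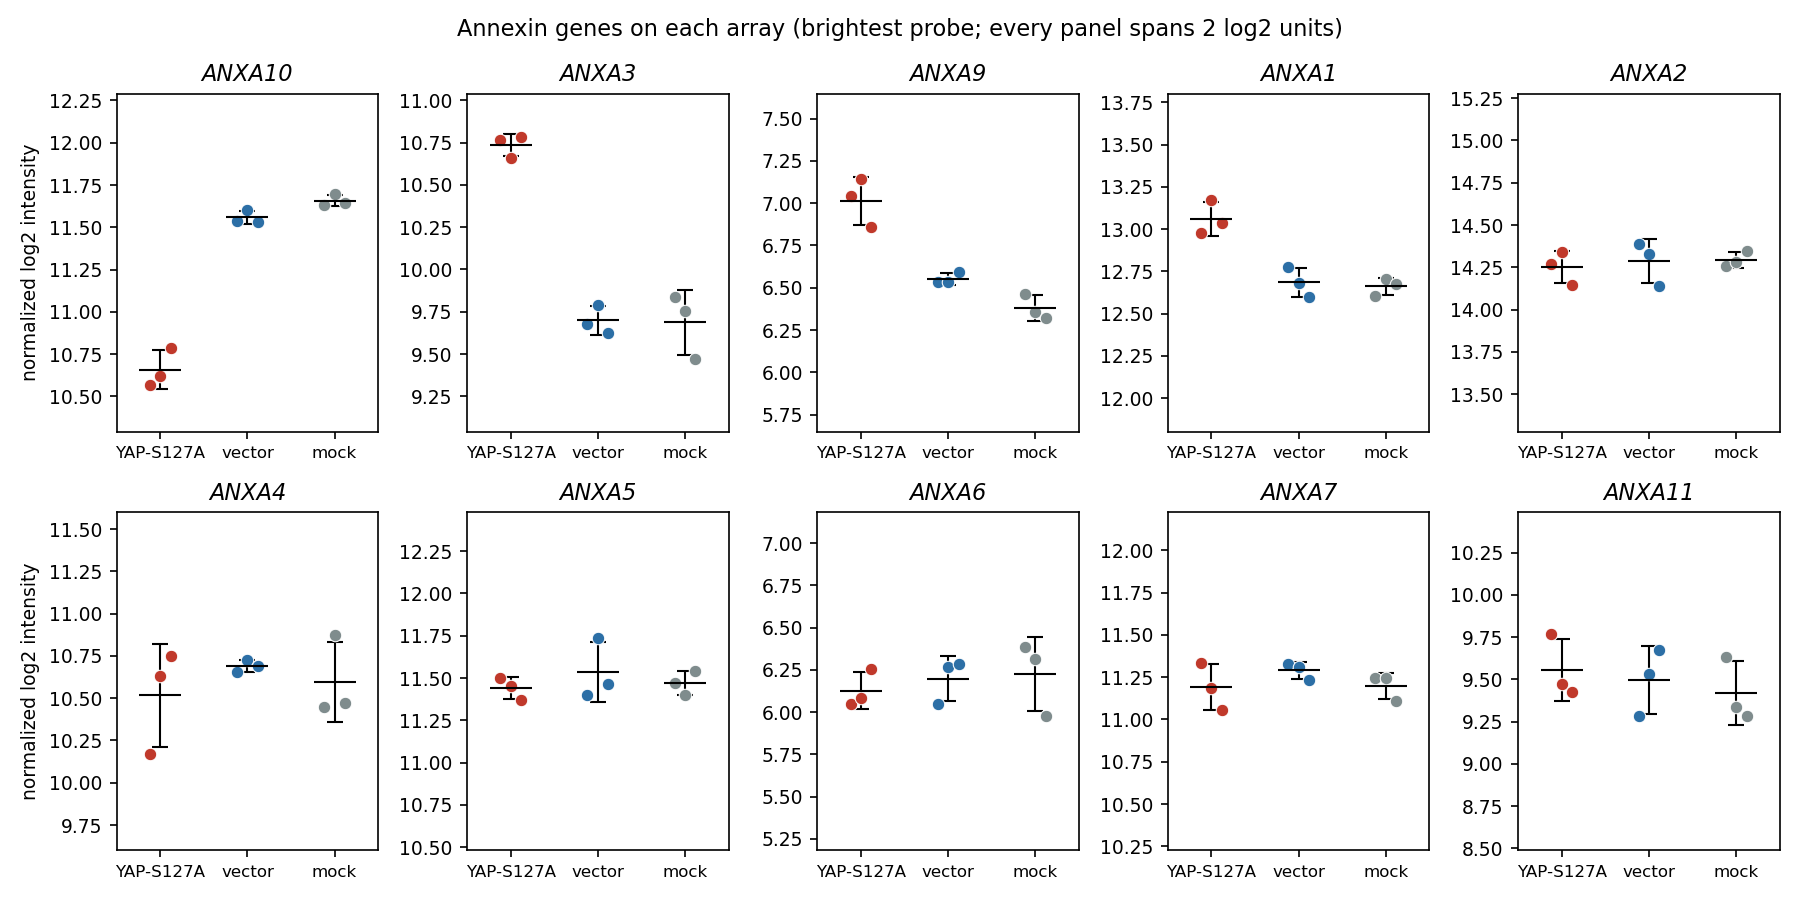
Normalized log2 intensity of the brightest probe of each of the 10 annexin genes, with 1 point per array, the group mean as a line and ± 1 SD as bars, for YAP-S127A, vector and mock (3 arrays each). The YAP-S127A points of ANXA10 lie below all 6 control points, and those of ANXA3, ANXA9 and ANXA1 lie above them.

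ANXA10, the gastric member, whose calcium sites are largely lost, lies on chromosome 4. Its probe read 10.57, 10.62 and 10.79 in YAP-S127A cells, 11.54, 11.60 and 11.53 in vector cells and 11.63, 11.70 and 11.65 in mock cells. All YAP-S127A arrays lay below every control array, and the vector arrays also lay below the mock arrays. The group means were 10.66 ± 0.12 in YAP-S127A, 11.56 ± 0.04 in vector and 11.66 ± 0.03 in mock cells (SD, n = 3 each). ANXA10 fell by 0.90 ± 0.10 (SE) relative to vector and by 1.00 ± 0.10 relative to mock, which is 1.87-fold and 2.00-fold lower. By size of difference it ranked 57 of the 16180 genes against vector and 49 against mock. Over the 11 other settings tried and with each of the 9 arrays left out, the difference lay between -0.96 and -0.85 against vector and between -1.06 and -0.95 against mock. The gene was picked for this difference, so these ranges are a description.

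ANXA10 is characteristic of gastric epithelium but is not on the gastric marker list used here, of which 7 of 10 genes were tested. GKN1 and GKN2, the gastrokine genes of the stomach surface, were under the filter. Of the 7 tested, 4 were called lower in each YAP-S127A comparison and 3 did not pass. Over all genes 1.7% were called lower against vector and 2.07% against mock. The marker lists were chosen with earlier results of these data known, so their counts and differences are a description of these arrays. The median difference of the 7 was -0.59 against vector and -0.59 against mock. The tight junction gene CLDN18 differed by -0.86 and -0.91 from vector and mock, the mucosal peptide gene TFF1 by -0.90 and -0.69, the aspartic protease gene CTSE by -0.82 and -0.78 and the membrane protein gene VSIG1 by -0.59 and -0.59. On the other marker lists, CDH17 and LGALS4 of intestinal epithelium fell, 2 of the 6 intestinal markers tested. LYZ, 1 of the 3 tested genes listed as leukocyte markers, fell too, in RNA of a gastric cancer cell line. KRT8 differed by 0.85 and 0.88 and KRT18 by 1.54 and 1.25, the 2 of 5 epithelial markers that rose. The part of these changes in the ANXA10 difference was not tested. By the root mean square difference of centred log2 profiles over the 9 arrays, the genes nearest to ANXA10 were REPS2 at 0.0612, LGALS4 at 0.117, CYP3A5 at 0.122, CTSE at 0.124 and SPRR1A at 0.126. LGALS4 and CTSE also stood on the intestinal and gastric marker lists. This likeness is a description over the arrays of 3 groups.

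**Figure D2:**
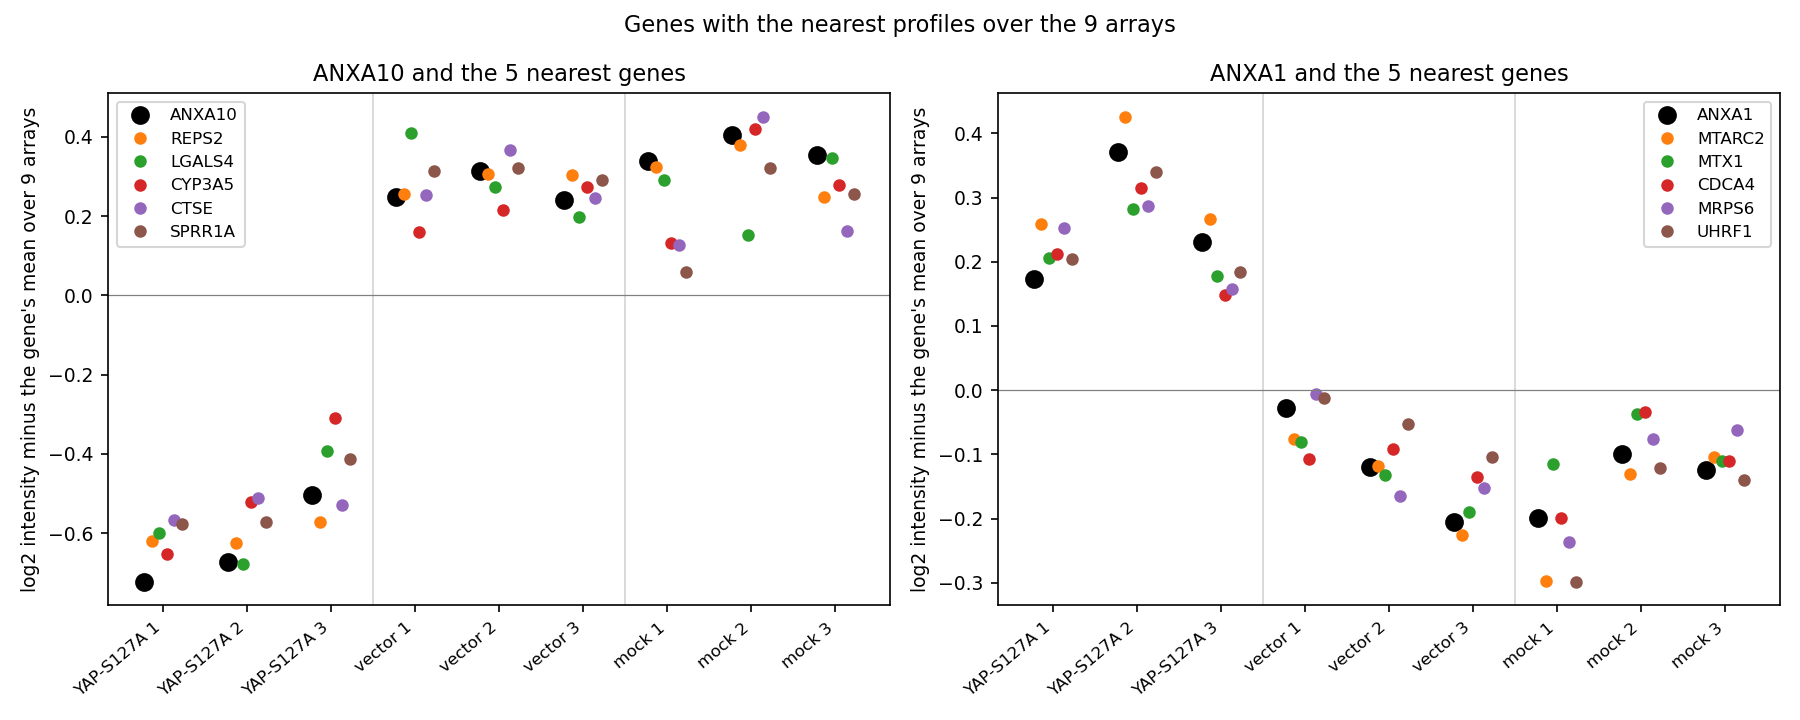
Log2 intensity of ANXA10 and of ANXA1, each with its 5 nearest genes, centred on each gene's own mean over the 9 arrays and plotted by array in the order YAP-S127A, vector, mock. In the ANXA10 panel the points are low in the YAP-S127A arrays, and in the ANXA1 panel they are high there.

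ANXA3, an annexin first described for its effect on phospholipase A2, lies on the same chromosome as ANXA10 and differed in the opposite direction. Its levels were 10.77, 10.66 and 10.78 in YAP-S127A cells, 9.68, 9.79 and 9.63 in vector cells and 9.84, 9.76 and 9.47 in mock cells. The groups of YAP-S127A and control arrays were separated by a gap wider than the spread inside any group, and the vector and mock arrays overlapped. Means were 10.74 ± 0.07 in YAP-S127A, 9.70 ± 0.08 in vector and 9.69 ± 0.19 in mock cells (SD, n = 3 each). The difference was 1.04 ± 0.11 (SE) from vector and 1.05 ± 0.11 from mock, or 2.05-fold and 2.07-fold higher. It ranked 41 by size in both comparisons, the highest rank among the annexins. ANXA3 is represented by a single probe.

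ANXA9, a divergent annexin without the usual calcium sites that is found in keratinocytes, was the dimmest of the 4 called genes relative to the other probes on the arrays. Its probe read 7.04, 7.14 and 6.86 in YAP-S127A cells, 6.53, 6.53 and 6.59 in vector cells and 6.47, 6.35 and 6.32 in mock cells. These means lay at the 71.3 percentile of probes in YAP-S127A, 61.8 in vector and 51.1 in mock cells. The 3 groups did not overlap one another. ANXA9 averaged 7.01 ± 0.14 in YAP-S127A cells, 6.55 ± 0.03 in vector cells and 6.38 ± 0.08 in mock cells (SD, n = 3 each), which gave differences of 0.46 ± 0.10 (SE), 1.37-fold, and 0.63 ± 0.10, 1.55-fold. Before normalization the signals were 173, 182 and 133 units in YAP-S127A, 142, 116 and 142 in vector and 133, 128 and 131 in mock cells, so that YAP-S127A array 3, the array with the lowest median signal at 107, overlapped the controls. The size varied with the processing: with no background correction the differences were 0.34 from vector and 0.45 from mock, and with the deposited log2 values 0.27 and 0.38. The call against vector ended with scaling to equal medians, at 0.42, and without vector array 1, vector array 2, YAP-S127A array 1 or YAP-S127A array 2, at 0.44, 0.45, 0.45 and 0.40, whereas the call against mock held throughout.

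ANXA1, on chromosome 9, encodes a glucocorticoid-regulated protein that acts outside the cell as a ligand of the formyl peptide receptors. It read 12.98, 13.17 and 13.03 in YAP-S127A cells, 12.77, 12.68 and 12.60 in vector cells and 12.60, 12.70 and 12.68 in mock cells. The YAP-S127A arrays lay above all controls, and the vector and mock arrays were mixed. Its mean was 13.06 ± 0.10 in YAP-S127A, 12.68 ± 0.09 in vector and 12.66 ± 0.05 in mock cells (SD, n = 3 each), a difference of 0.38 ± 0.10 (SE) from vector and 0.40 ± 0.10 from mock. These are 1.30-fold and 1.32-fold, the smallest of the 4 called differences. The call against vector ended with scaling to equal medians, with the replicate number as a block, and when any 1 of the 6 YAP-S127A and vector arrays was left out, where the difference stayed between 0.32 and 0.42. Against mock it ended with equal medians, at 0.31, and without mock array 1, YAP-S127A array 2 or YAP-S127A array 3, at 0.37, 0.35 and 0.41. ANXA1 was picked for these differences, so its calls and ranges are a description. The genes nearest to ANXA1 in profile over the 9 arrays were MTARC2 at 0.0531, MTX1 at 0.0535, CDCA4 at 0.0559, MRPS6 at 0.0574 and UHRF1 at 0.0577, by the same measure as above.

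Leaving out mock array 1, the control that stood apart, changed these differences from mock little. They became -1.01 for ANXA10, 1.13 for ANXA3, 0.68 for ANXA9 and 0.37 for ANXA1, the last no longer called.

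The promoters are shown for ANXA10, ANXA1 and ANXA3 because their base composition differs. Each sequence is the 250 bases before the transcription start on the gene's strand, from RefSeq on GRCh38.p14, at chr4:168092287-168092536 (plus strand) for ANXA10, chr9:73151615-73151864 (plus strand) for ANXA1 and chr4:78551520-78551769 (plus strand) for ANXA3. Capitals mark the TATA box letters TATAAA, read on the given strand.
ANXA10: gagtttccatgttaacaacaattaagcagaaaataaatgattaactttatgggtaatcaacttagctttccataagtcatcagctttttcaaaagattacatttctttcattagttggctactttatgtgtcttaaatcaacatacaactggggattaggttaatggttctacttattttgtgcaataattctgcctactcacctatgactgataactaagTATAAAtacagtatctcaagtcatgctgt
ANXA1: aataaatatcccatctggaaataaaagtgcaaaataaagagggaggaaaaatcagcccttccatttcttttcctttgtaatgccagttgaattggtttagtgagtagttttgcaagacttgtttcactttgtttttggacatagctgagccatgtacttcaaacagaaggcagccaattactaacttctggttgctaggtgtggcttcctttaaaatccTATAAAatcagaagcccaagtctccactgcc
ANXA3: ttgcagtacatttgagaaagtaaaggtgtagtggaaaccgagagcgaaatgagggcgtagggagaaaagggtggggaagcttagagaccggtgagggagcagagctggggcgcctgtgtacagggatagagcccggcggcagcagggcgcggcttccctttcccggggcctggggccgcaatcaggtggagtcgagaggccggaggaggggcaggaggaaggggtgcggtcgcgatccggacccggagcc

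The ANXA10 window is 31.2% G and C, and 2.16% of the 35116 promoter windows in the reference table are lower. ANXA1 has 38.4%, with 10.1% of windows lower, and ANXA3 has 64.0%, with 64.4% lower. The ANXA10 and ANXA1 windows each hold 0 CpG dinucleotides, against 18 in ANXA3. TATAAA begins 29 bases before the start of ANXA10 and 31 bases before that of ANXA1 and is not in the ANXA3 window. The window of ANXA9, which is not printed, is 58.0% G and C, with 4 CpG dinucleotides and 0 matches to TATAAA. A link between composition and direction of difference was not tested. All 10 annexin genes matched the table, with 14 windows, and the windows of the other 7 genes reached 78.8% G and C and were each above those of ANXA10 and ANXA1. The median over all windows in the table was 58.0%. TATAAA occurred in 4 of the 14 annexin windows, also in ANXA2 at 31 bases and in 1 of the ANXA11 windows at 61 bases, and in 6.8% of all windows. GGAATG, the letters bound by the TEAD partners of YAP1, was in 0 of the 14 on either strand and in 11.9% of all windows. TGACTCA, bound by AP-1, was in 1, that of ANXA2, and in 4.2% of all windows. These are matches of letters in short windows and say nothing about binding there or elsewhere.

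The annexins called against neither control were ANXA2, ANXA4, ANXA5, ANXA6, ANXA7 and ANXA11. They are not the broadly expressed members as a whole, since ANXA1, also made in many tissues, was called against both. ANXA2, which forms a tetramer with S100A10 that binds plasminogen and its activator at the cell surface, has 3 probes. Its brightest read 14.27, 14.34 and 14.15 in YAP-S127A cells, 14.39, 14.33 and 14.14 in vector cells and 14.26, 14.28 and 14.35 in mock cells, with the 3 groups overlapping. The differences of this probe were -0.03 from vector and -0.04 from mock, each ± 0.10 (SE). The second probe differed by -0.11 and 0.00, and the dimmest by -0.02 and -0.14, with its mock arrays above those of YAP-S127A and vector. The processed pseudogenes ANXA2P1, ANXA2P2 and ANXA2P3 have sequence close to that of ANXA2, so that signal may be shared between their probes. Their differences were -0.09, -0.08 and -0.07 from vector and -0.03, -0.03 and -0.19 from mock. ANXA8 and ANXA8L1, a pair of near copies, differed by 0.00 and 0.15 from vector and by -0.14 and 0.01 from mock, and 0 of these 5 further annexin symbols passed the limma test in any comparison, with 0 at an unadjusted p under 0.05 in either YAP-S127A comparison.

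ANXA5, the phosphatidylserine binder used to label dying cells, averaged 11.44 ± 0.07 in YAP-S127A, 11.53 ± 0.18 in vector and 11.47 ± 0.07 in mock cells (SD, n = 3 each), with differences of -0.09 from vector and -0.03 from mock, each ± 0.11 (SE). ANXA4, an epithelial annexin of apical and secretory membranes, averaged 10.52 ± 0.30 in YAP-S127A, 10.69 ± 0.04 in vector and 10.60 ± 0.24 in mock cells and differed by -0.17 from vector and -0.08 from mock, each ± 0.13. Its YAP-S127A arrays were the most scattered of any group among the brightest annexin probes, from 10.17 to 10.75, and spanned all vector arrays. ANXA7, also called synexin, which fuses granule membranes, averaged 11.19 ± 0.14 in YAP-S127A, 11.29 ± 0.05 in vector and 11.20 ± 0.08 in mock cells and differed by -0.10 from vector and -0.01 from mock, each ± 0.10. Its second probe, with a mean of 6.03, was the 1 annexin probe under the filter. ANXA6, a larger annexin built of a repeated core, sat at the 25.5 percentile of probes, just above the filter, with 6.13 ± 0.11 in YAP-S127A, 6.20 ± 0.13 in vector and 6.23 ± 0.22 in mock cells. So near the filter, its differences of -0.07 from vector and -0.10 from mock, each ± 0.12, carry little about the transcript. The 95% intervals of ANXA2, ANXA4, ANXA5, ANXA6, ANXA7 and ANXA11 lay within -0.45 to 0.32 against vector and within -0.36 to 0.40 against mock.

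ANXA11, whose long N-terminal tail binds PDCD6 and S100A6 and tethers RNA granules to lysosomes, gave probes that disagreed. The brightest averaged 9.55 ± 0.18 in YAP-S127A, 9.50 ± 0.20 in vector and 9.42 ± 0.19 in mock cells (SD, n = 3 each) and differed by 0.06 from vector and 0.14 from mock, each ± 0.13 (SE). A second probe read 9.07, 8.95 and 9.06 in YAP-S127A cells, 8.65, 8.57 and 8.79 in vector cells and 8.67, 8.83 and 8.57 in mock cells. There all YAP-S127A arrays lay above all 6 controls, with differences of 0.35 and 0.33, each ± 0.11, and neither was called. The dimmest probe differed by -0.17 and -0.27, each ± 0.14. Which transcripts of ANXA11 each probe reads was not analysed here.

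Tested probe by probe over 35423 probes, 14 of the 15 annexin probes passed the filter. Against vector 3 were called, where 2.1% of probes were, and against mock 4, where 2.54% were. The 3 were the probes of ANXA3, ANXA9 and ANXA10, and ANXA1 was the further one against mock. Each of these genes has a single probe, so for them this test uses the same values as the test by gene. Of the 14, 5 had YAP-S127A arrays apart from all control arrays, the 4 called genes and the second probe of ANXA11, as did 8.38% of probes tested.

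**Figure D3:**
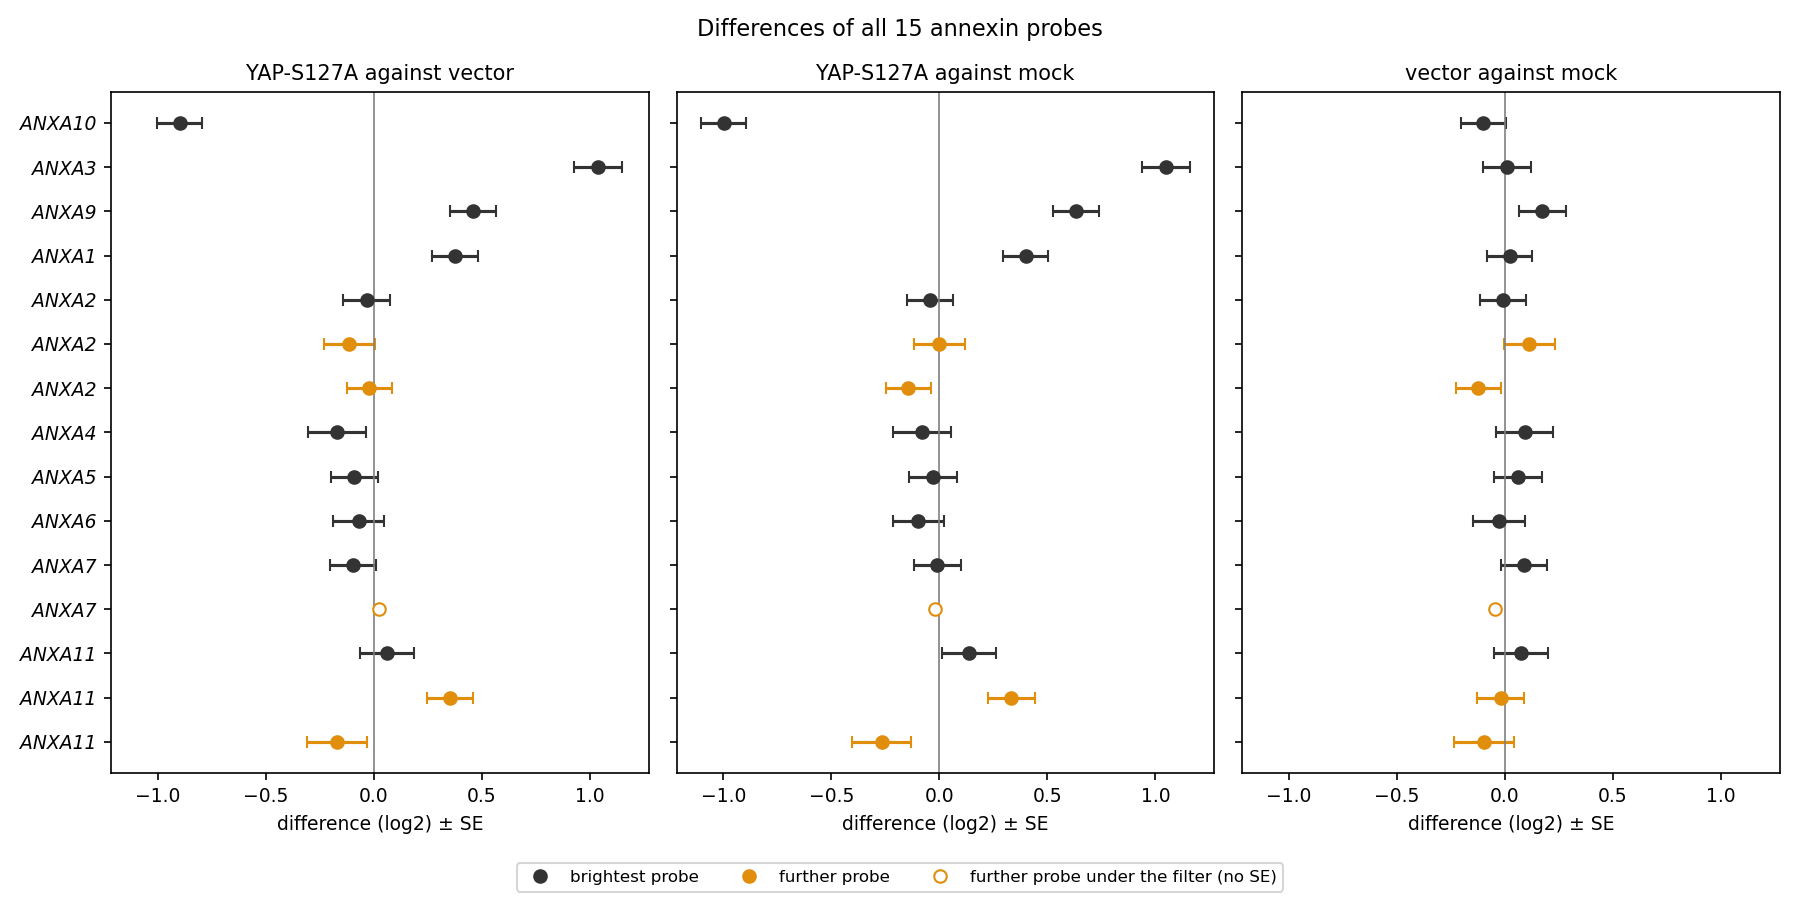
Difference in log2 intensity for each of the 15 annexin probes, YAP-S127A minus vector, YAP-S127A minus mock and vector minus mock, with bars of ± 1 SE, dark points for the brightest probe of a gene, orange points for further probes and an open point for the ANXA7 probe under the filter. ANXA3 lies near 1.04 and 1.05 and ANXA10 at or below -0.90, while in the YAP-S127A comparisons the 3 ANXA2 probes lie between -0.14 and 0.00.

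Between vector and mock cells only 2 of the 16180 genes tested were called, so a count of 0 says little about the annexins. Between vector and mock cells 0 of the 10 genes were called in limma, where 0.0124% of all genes were, and 0 had an unadjusted p under 0.05. Probe by probe 0 of the 14 were called, where 0.00847% were. ANXA10 differed by -0.10 ± 0.10 (SE, adjusted p = 0.960) and ANXA9 by 0.17 ± 0.10 (adjusted p = 0.906), and in both the vector arrays lay apart from the mock arrays on the side of the YAP-S127A cells. Such separation between vector and mock was found in 2 of the 10 annexins and in 10.1% of genes. ANXA3 differed by 0.01 ± 0.11 and ANXA1 by 0.02 ± 0.10 (limma adjusted p = 0.999 each).

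S100 proteins are small calcium sensors, several of which bind annexin tails. The S100 list was chosen with earlier results of these data known. Its YAP-S127A counts and p-values are therefore a description of these arrays. Of 19 S100 genes listed, 13 were tested, and against vector 1 was higher, 0 were lower and 12 did not pass, with a median difference of 0.05. Against mock 1 was higher, 1 lower and 11 did not pass, with a median of -0.05. Over all genes 1.76% were called higher and 1.7% lower against vector, and 2.18% higher and 2.07% lower against mock. S100A16 was the one that rose, by 0.54 ± 0.11 (SE, limma adjusted p = 0.00342) over vector and by 0.46 ± 0.11 (adjusted p = 0.0127) over mock. The call against mock was lost with scaling to equal medians, at adjusted p = 0.136 in limma, without mock array 1, at 0.0742, and without YAP-S127A array 2, at 0.0784. S100P, a secreted S100 protein of epithelial tumours, fell by 0.43 ± 0.10 relative to mock (limma adjusted p = 0.0163) and differed by -0.36 ± 0.10 from vector (adjusted p = 0.0525). The difference from vector passed under 7 of the 11 other settings, at a limma adjusted p of 0.0106 with the deposited values and of 0.0159 with no background correction, and with mock array 1 left out, at 0.0388. Its call against mock was lost without mock array 1, YAP-S127A array 1 or YAP-S127A array 2, at limma adjusted p of 0.0643, 0.0651 and 0.0635. The 3 S100 genes named for their known annexin partners did not pass the test. S100A10, the partner of ANXA2, differed by 0.12 and 0.07 (limma adjusted p = 0.652 and 0.805), S100A11, the partner of ANXA1, by -0.09 and -0.17 (adjusted p = 0.770 and 0.452) and S100A6, which binds ANXA11, by -0.08 and -0.17 (adjusted p = 0.829 and 0.505).

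Among 19 listed receptors, ligands and membrane-repair partners of annexins, 18 had a probe and 14 were tested. This list too was chosen with earlier results known, so its counts and p-values are likewise a description. Against vector 1 was higher, 1 lower and 12 did not pass, with a median of -0.01. Against mock 1 was higher, 0 were lower and 13 did not pass, with a median of 0.05. The shares over all genes were 1.76% higher and 1.7% lower against vector, and 2.18% higher and 2.07% lower against mock. MYOF, or myoferlin, a ferlin of membrane fusion and repair, rose by 0.53 ± 0.12 (SE, limma adjusted p = 0.00969) over vector and by 0.67 ± 0.12 (adjusted p = 0.0011) over mock. Its 3 probes differed by 0.53, 0.47 and 0.56 from vector, and the call against vector was lost without vector array 2, at limma adjusted p = 0.0886, or YAP-S127A array 2, at 0.0562. CAPN1, a calcium-activated protease that acts in membrane repair, fell by 0.48 ± 0.12 relative to vector (limma adjusted p = 0.0272) and differed by -0.31 ± 0.12 from mock (adjusted p = 0.179). Leaving out any 1 of the 3 vector arrays, YAP-S127A array 2 or YAP-S127A array 3 ended its call, at limma adjusted p between 0.0564 and 0.149. The ANXA1 receptor genes FPR1 and FPR2 differed by 0.00 and -0.02 from vector and by 0.11 and -0.14 from mock and did not pass, and FPR3 and PLG, the gene of plasminogen, were under the filter.

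**Figure D4:**
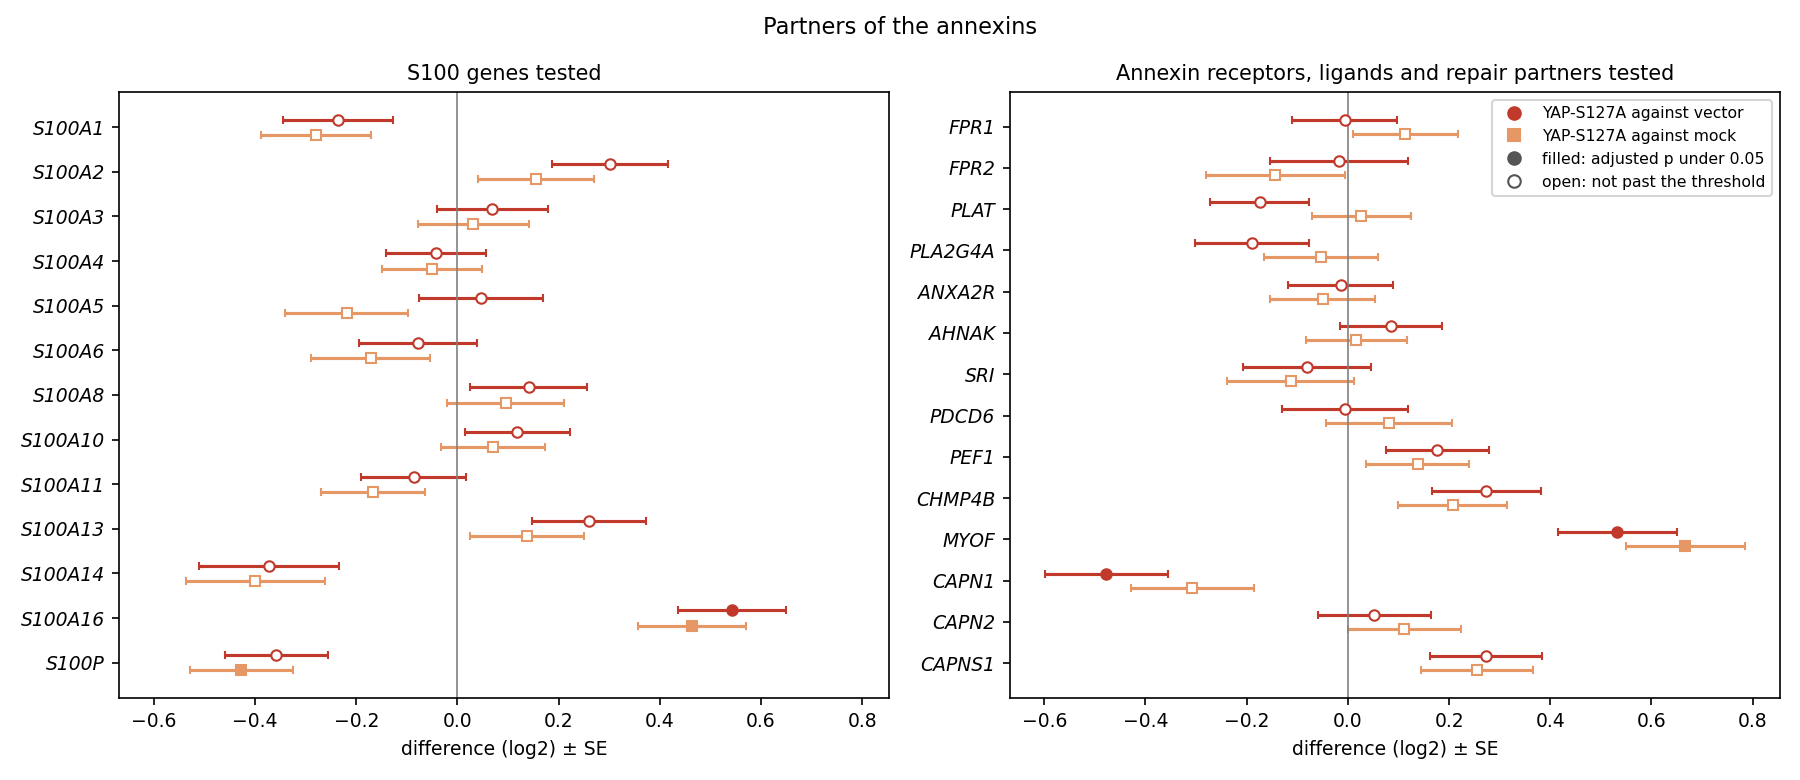
Difference in log2 intensity of the tested S100 genes and annexin partners, YAP-S127A minus vector (circles) and YAP-S127A minus mock (squares), with bars of ± 1 SE and filled points for genes past the limma threshold. S100A16 and MYOF lie above 0 and are filled in both comparisons, CAPN1 lies below 0 and is filled against vector, and S100P lies below 0 and is filled against mock.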

How the data were processed

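Illumina single-colour arrays of MKN45 RNA were analysed from the deposited probe signals, which are linear intensity values without background subtraction, as their values show. BeadStudio is named in the submitters' processing notes (version not given in the sources used here). Deposited log2 values, whose median was 6.92 on every array, served as an alternative. Signals were background-corrected (normexp, offset 50), log2-transformed and quantile normalized with limma 3.58.1 (R 4.3.3). Differences of dim probes varied with this correction. Probes above the lower quartile (6.18) of their means over the 9 arrays were kept, 35423 of 47231, and the brightest probe stood for a gene (16180 genes). Of all probes, 30113 had 1 gene symbol, 8 several and 17110 none listed; 30074 took a current symbol through the gene ID. One limma fit of all 9 arrays had 6 residual and 16.4 prior degrees of freedom, with calls at a Benjamini-Hochberg adjusted p under 0.05, and was tested on simulated data. Array number limits the precision.

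The members, gene lists and markers were chosen with earlier results of these data known. Named genes were all annexin probes, list genes called in either YAP-S127A comparison, S100A10, S100A11 and S100A6 whatever their values, and the 5 genes nearest to ANXA10 and to ANXA1. ANXA8, ANXA8L1, the ANXA2 pseudogenes, FPR1 to FPR3, PLG and the cell markers named came from the same lists. The TATAAA search, the refits of S100A16, S100P, MYOF and CAPN1, and the nearest genes of ANXA3 and ANXA9 were added after seeing the data. Annexin proteins were not analysed here. Alternatives changed background correction, scaling, filter, probe choice, arrays in the fit, moderation, array weights, the replicate block, threshold and single arrays.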

Additional observations from a re-analysis of the deposited data

How the results depend on the processing

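No annexin difference that was called changed sign under an alternative, and of 582 differences recomputed 7 moved by over 1 SD of the replicates. Changes of filter, moderation, replicate block or arrays in the fit leave a difference as it was. Many of the 582 therefore could not move, and their number does not measure stability. ANXA9 was among those that moved, with no background correction and with the deposited log2 values. The 4 annexin genes called against vector became 2, ANXA3 and ANXA10, with scaling to equal medians, at an adjusted p under 0.01 and with a further 1.5-fold limit. Leaving out single arrays gave 2 to 4 genes, with 2 without vector array 1, vector array 2, YAP-S127A array 1 or YAP-S127A array 2. The 3 probes called against vector became 5 with no background correction and 5 with the deposited log2 values, and 2 to 4 with single arrays left out. Against mock 3 to 4 genes were called under the settings tried, and between vector and mock 0. The cause of these changes was not tested. Equal medians also moved the share of higher calls over all genes to 38.5% from vector and 31.3% from mock, where it was 50.8% and 51.2%. Over all genes the 559 calls against vector became 366 with equal medians, 271 at an adjusted p under 0.01, 195 with the fold limit and 291 to 738 with single arrays left out, and the 687 against mock became 470, 291, 211 and 325 to 820. The 2 calls between vector and mock became 54 without mock array 3. Same-numbered arrays did not deviate together (correlations of -0.15 to 0.10 over 9 pairs, against -0.09 to 0.13 between other numbers). The labels do not say whether same-numbered samples were handled together, and these correlations cannot settle it. With the replicate block 3 annexin genes were called against vector, without ANXA1, 4 against mock and 0 between the controls. ANXA6 fell under the filter in several alternatives, and its signal and that of ANXA9 lie near background, which limits how well their differences are measured.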

Other observations

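ANXA3 and ANXA9 were searched for like profiles after their values were seen, by the root mean square difference of centred log2 profiles over the 9 arrays. Nearest to ANXA3 were SFTA2 at 0.114, RND3 at 0.121, TPM1 at 0.135, IGFBP1 at 0.137 and CPVL at 0.150. TPM1 is a tropomyosin of actin filaments and IGFBP1 binds insulin-like growth factors. Nearest to ANXA9 were TNS3 at 0.0697, BCS1L at 0.0717, PPT1 at 0.0804, CAB39 at 0.0915 and CHST13 at 0.0961. None of the 5 genes nearest to ANXA10, ANXA1, ANXA3 or ANXA9 was another annexin. The measure keeps apart genes whose differences are unlike in size or sign, so this says little about the family. The likeness is a description over 3 groups of 3 arrays.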
